A study of Mus musculus with 2 samples.

Results

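The ubiquitin-conjugating enzymes, or E2 enzymes, were examined as the protein-coding genes of the deposited table whose symbol starts with Ube2. This rule gave 37 of the 54532 genes in the table, and it used no measured value. A further 6 genes with such a symbol have another biotype and were not members. The values come from RNA sequencing of RAW264.7 cells, a macrophage-like line from a mouse tumour, with 1 library labelled wild type and 1 library labelled RNF138 knockout. Both cultures had received lipopolysaccharide (LPS), a bacterial outer-membrane component, at 100 ng/ml for 3 h, so no value measures a response to LPS. How the knockout was made, and whether it is 1 clone, the sources used here do not give.

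Ubiquitin is attached to proteins in a relay. An E1 enzyme activates ubiquitin, an E2 enzyme carries it on a catalytic cysteine, and an E3 ligase brings the loaded E2 to the substrate. The E2 often decides which linkage a chain takes, and some E2 enzymes carry relatives of ubiquitin (SUMO, NEDD8 or ISG15) instead. In macrophages, chains joined through lysine 63 or end to end relay signals from Toll-like receptors to NF-kappaB. RNF138 is a RING-type E3 ligase, and UBE2K and UBE2D enzymes have been described as its E2 partners in other settings.

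Counts summed to 15573989 in the library labelled wild type and to 19032311 in the library labelled knockout. Rnf138 itself (ENSMUSG00000024317, GRCm38 chromosome 18) had 602 and 4764 counts, 6.55-fold higher in the knockout-labelled library (interval 6.01 to 7.14). The targeted gene thus goes against its label, and each direction below rests on the labels alone. All 8 macrophage markers were measured, and their summed level was 2614 CPM (counts per 1000000, on scaled library totals) in the wild-type-labelled library and 3801 CPM in the knockout-labelled library. Among them Lyz2, the lysozyme gene, was 2.55-fold higher (2.46 to 2.64) and Adgre1, the gene of the F4/80 antigen, was 3.58-fold lower (3.02 to 4.26) in the knockout-labelled library. Lists of T cell, B cell, fibroblast and epithelial markers summed to at most 7 counts per library, with 3 of 4, 2 of 3, 1 of 4 and 3 of 4 of them at 0 in both. Each group had 1 library, so no difference has a replicate check and no test was run. Intervals are exact and at 95%, and they cover counting error only, which PCR copies without molecular identifiers may make too small.

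Of the 37 Ube2 genes, 32 were measured, which took a mean of 10 or more counts over both libraries. The unmeasured genes were Ube2d2b with 1 and 0 counts, Ube2ql1 with 0 and 1 counts, and Ube2u, Ube2dnl1 and Ube2dnl2 with 0 counts in both libraries. The floor of 3 counts set for a count of 0 is 0.192 CPM in the wild-type-labelled library and 0.158 CPM in the knockout-labelled library. The exact interval of a count of 0 reaches 0.236 CPM and 0.195 CPM. Summed over all 37 genes, the E2 transcripts stood at 3460 CPM in the wild-type-labelled library (3431 to 3490) and 3298 CPM in the knockout-labelled library (3272 to 3324). The sum was therefore 0.953 times as high in the knockout-labelled library (0.942 to 0.964).

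On the deposited FPKM scale, a level per length of gene and per library, the measured genes ran from 0.342 to 84.4 FPKM in the wild-type-labelled library and from 0.462 to 75.9 FPKM in the knockout-labelled library. Ube2c, whose product starts chains for the anaphase-promoting complex, had the highest level in both libraries (84.4 and 75.9 FPKM). High levels were also found for Ube2d2a (64.1 and 45.6 FPKM), Ube2s (47.9 and 58.1 FPKM) and Ube2m (47.4 and 52.4 FPKM). The value of Ube2d2a rests on a deposited length of 2483 bases, against 11565 for its joined exons in the GENCODE M21 annotation. At the low end stood Ube2v1 (0.342 and 0.462 FPKM) and Ube2e2 (0.388 and 1.97 FPKM). Over the 32 measured genes the FPKM values of the libraries had a Spearman rank correlation of 0.976, and no gene moved by more than 5 ranks.

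**Figure D1:**
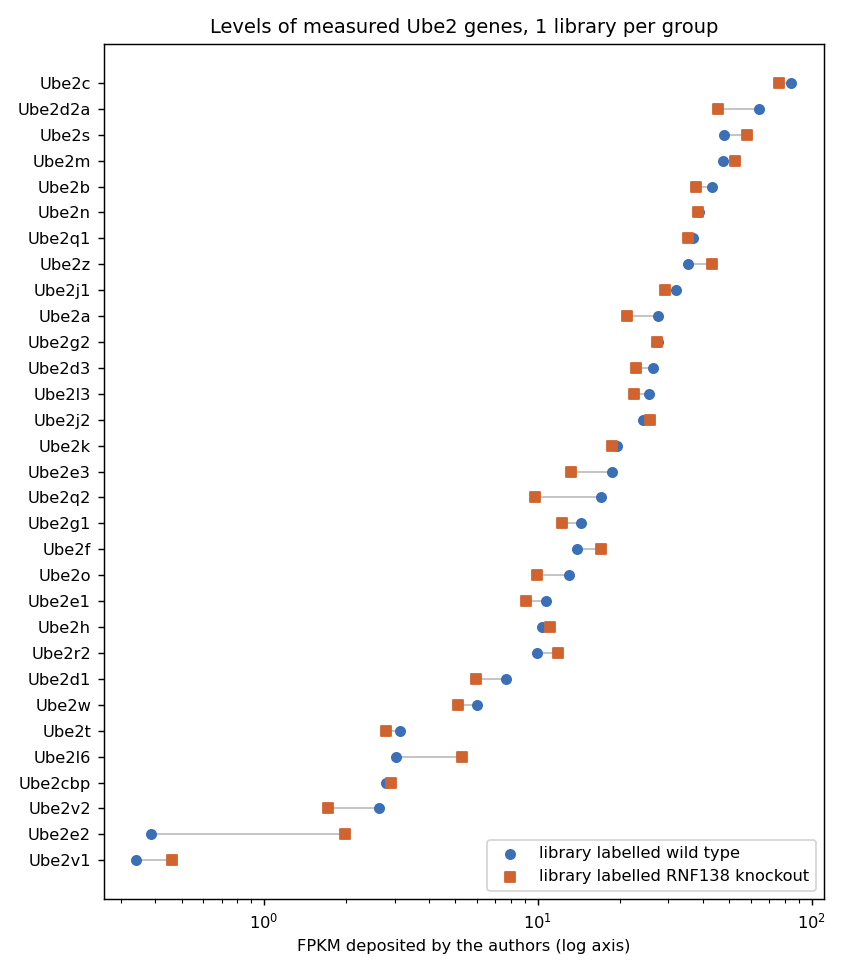
Deposited FPKM of 31 measured Ube2 genes on a log axis, with circles for the library labelled wild type and squares for the library labelled RNF138 knockout (1 library each), ordered by the former. Ube2c is highest at 84.4 and 75.9 FPKM, and the widest gap is that of Ube2e2 at 0.388 and 1.97 FPKM.

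Most E2 genes differed little between the libraries, and Ube2e2 stood apart. To pass the size rule used here, a measured gene had to differ at least 2-fold, with an interval that excludes 1. By this rule 1 of 32 measured Ube2 genes was higher in the knockout-labelled library, against 6.54% of all 12668 measured genes, and 0 were lower, against 3.62%. The gene was Ube2e2, which averaged fewer than 100 counts. Among genes averaging 100 or more counts, 3.47% were higher and 1.71% lower by this rule. Of the 29 Ube2 genes in that range, 0 passed it. The shares over all measured genes, 6.54% and 3.62%, stand beside each list count by this rule below, and those over abundant genes are smaller. Ratios of the other 31 genes, always the knockout-labelled library over the wild-type-labelled one, ran from 0.577 to 1.75, and for 29 of them the whole interval lay within 2-fold. The exceptions were Ube2l6 and Ube2v1, named after their values were seen. At a limit of 1.5-fold, 2 Ube2 genes were higher (Ube2e2 and Ube2l6) and 2 were lower (Ube2q2 and Ube2v2), against 12.9% and 8.06% of measured genes.

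Small differences were common, with more of them towards lower values. The interval of the ratio lay above 1 for 7 Ube2 genes and below 1 for 15, against 31.5% and 28.1% of all measured genes. Since abundant genes have narrow intervals, the same was counted over genes averaging 100 or more counts. There 6 of 29 Ube2 genes were above 1 and 15 were below, against 34.9% and 33.3% of 9411 genes. The median log2 ratio was -0.09 for the 32 measured Ube2 genes and 0.02 for all measured genes. Between the quartiles, the log2 ratios of those 29 Ube2 genes ran from -0.23 to 0.09, and those of the 9411 genes from -0.23 to 0.28.

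**Figure D2:**
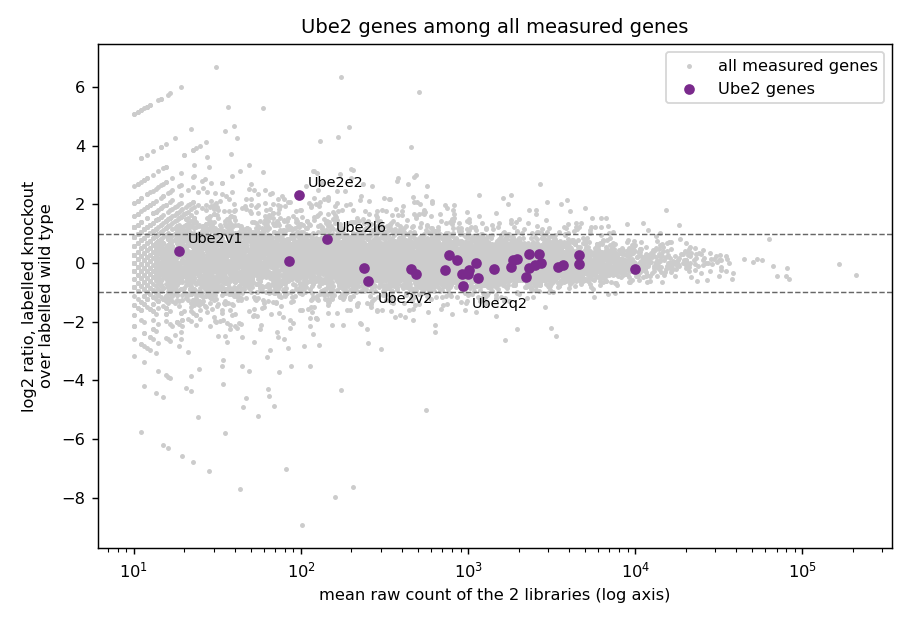
Log2 of the knockout-labelled over the wild-type-labelled library against mean raw count on a log axis for all 12668 measured genes in grey and the 32 measured Ube2 genes in purple, with dashed lines at 2-fold. Ube2e2 is the Ube2 gene beyond a dashed line, at 2.33 on the log2 scale.

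UBE2D and UBE2E enzymes are small, closely related E2 enzymes that work with many RING ligases, and the UBE2E proteins carry an added N-terminal stretch. Ube2e2 (ENSMUSG00000058317, GRCm38 chromosome 14, 18573575 to 18894267, minus strand) had 27 counts in the wild-type-labelled library and 167 in the knockout-labelled library. These correspond to 1.72 CPM (1.14 to 2.51) and 8.82 CPM (7.54 to 10.3), and the intervals do not overlap. The ratio was 5.12 (3.39 to 8.0), or 2.33 on the log2 scale. On a scale of log2 of FPKM plus 1, which compresses differences of weakly expressed genes, the difference was 1.10. In the authors' deposited table its log2 fold change was 2.35 with an adjusted p of 0.000583, and it was the 1 gene under 0.05 among 32 Ube2 genes with a value. That table has 1.44% of its 18843 tested genes under 0.05 and higher, 0.770% lower, and the sources used here do not give the spread that its p-values assume.

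The other UBE2D and UBE2E genes went the other way by small amounts. Ube2e3 had 1237 and 1058 counts, a ratio of 0.708 (0.651 to 0.769). Its neighbour in the family, Ube2e1, had 720 and 740 counts, a ratio of 0.850 (0.766 to 0.943). Both were below 1, whereas Ube2e2 was above it. Within the counts of the UBE2E genes, which needs no scaling between libraries, Ube2e2 held 1.36% in the wild-type-labelled library (exact binomial interval 0.899 to 1.97) and 8.50% in the knockout-labelled library (7.30 to 9.82). The share of Ube2e3 was 62.3% (60.2 to 64.5) and 53.8% (51.6 to 56.1), and that of Ube2e1 was 36.3% (34.2 to 38.5) and 37.7% (35.5 to 39.8), with intervals that overlap. Summed over the 3 genes, the level was 127 CPM and 104 CPM.

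Ube2d2a had 2394 and 2071 counts, a ratio of 0.716 (0.674 to 0.759). Ube2d3, the Ube2 gene with most counts, had 9703 and 10213, a ratio of 0.871 (0.847 to 0.895), and Ube2d1 had 503 and 474 counts, a ratio of 0.780 (0.686 to 0.886). All 3 stayed within 1.5-fold. Ube2d3 took 77.0% (76.3 to 77.7) of the counts of these UBE2D genes in the wild-type-labelled library and 80.1% (79.3 to 80.7) in the knockout-labelled library. The sequences of UBE2D genes and of the pseudogene Ube2d-ps are alike, so reads could be split between them and these values are uncertain. Ube2w, whose product adds ubiquitin to protein N-termini, had a ratio of 0.861 (0.754 to 0.983) on 444 and 462 counts. In bulk RNA, fewer cells with a transcript and less of it per cell cannot be told apart, which holds for each of these ratios.

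**Figure D3:**
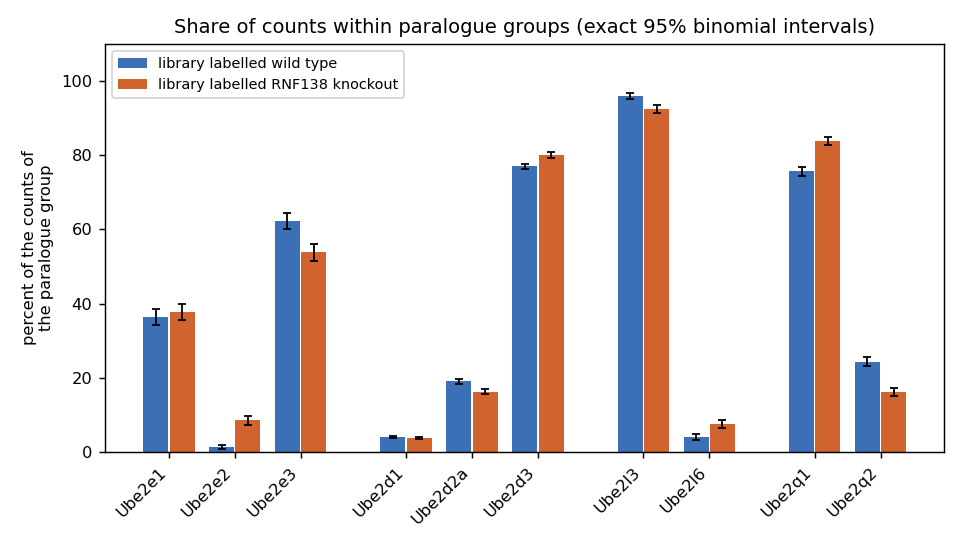
Share of the raw counts of a paralogue group (percent, bars from 0) held by each Ube2e, Ube2d, Ube2l and Ube2q gene in the wild-type-labelled library (blue) and the library labelled RNF138 knockout (orange), with exact 95% binomial intervals for counting error. Ube2e2 goes from 1.36% to 8.50%, Ube2l6 from 3.91% to 7.44% and Ube2q2 from 24.3% to 16.1%.

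No other measured gene within 1 Mb of Ube2e2 had a difference as large. Of these 6 genes 0 passed the size rule, against 6.54% of all measured genes higher and 3.62% lower. At these shares a count of 0 among 6 genes says little. The median log2 ratio of the 6 was 0.08, with 3 genes above 0. The lowest was Nr1d2, a nuclear receptor gene of the circadian clock, at -0.95, and the highest Gng2, a G protein subunit gene, at 0.72. Exons of Ube2e2 overlap no other gene in the GENCODE M21 annotation. Shown next are the 250 bases before the first of 2 RefSeq starts of Ube2e2, the member past the size rule (chr14:18893772-18894021, minus strand, GRCm38.p6). This window lies inside the span of the gene in the deposited table, which begins at 18894267 on this strand. Bases before that position were not searched.

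Ube2e2: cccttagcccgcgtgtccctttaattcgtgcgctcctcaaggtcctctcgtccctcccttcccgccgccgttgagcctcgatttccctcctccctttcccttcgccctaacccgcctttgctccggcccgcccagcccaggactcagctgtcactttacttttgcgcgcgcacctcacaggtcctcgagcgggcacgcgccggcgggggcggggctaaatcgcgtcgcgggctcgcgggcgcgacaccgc

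This stretch is 68.4% G and C. It was searched on both strands for GAAA, any 2 bases and GAAA again, the interferon-stimulated response element, and for GGGA, any base and TTTCC, a form of the kappaB element, and held neither. The other start's window (18893414 to 18893663), also inside the span of the gene, held neither as well. Among all 32851 promoter windows of the same length, 2.98% held the first and 0.356% the second. RefSeq windows were matched for 30 of the 37 Ube2 genes, and of their 41 windows 1 held the first motif, that of the undetected Ube2dnl1, and 0 held the second. A match or its absence describes these letters only.

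E2 genes of ISG15 and NEDD8 had ratios from 1.11 to 1.75, and none of the 3 passed the size rule. UBE2L6 is the E2 for ISG15, a ubiquitin-like protein induced by interferon. Ube2l6 (ENSMUSG00000027078, plus strand of GRCm38 chromosome 2, 84798828 to 84810335) counted 91 in the wild-type-labelled library and 193 in the knockout-labelled library, or 5.81 CPM (4.68 to 7.13) and 10.2 CPM (8.81 to 11.7). The intervals do not overlap, and the ratio was 1.75 (1.36 to 2.28). Its paralogue Ube2l3, which serves HECT and RBR ligases such as parkin and the linear chain assembly complex, had 2239 and 2400 counts, a ratio of 0.887 (0.837 to 0.940). Of their joint counts, Ube2l6 held 3.91% (3.16 to 4.77) and 7.44% (6.46 to 8.52). On the opposite strand, Ydjc covers 28.6% of the Ube2l3 exon length, and reads there cannot be assigned without a stated strand.

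Partners of UBE2L6 differed more than Ube2l6 itself. Of 5 measured genes of the ISG15 system, Ube2l6 among them, 4 passed the size rule with higher values in the knockout-labelled library and 0 with lower ones, against 6.54% and 3.62% of all measured genes, with a median log2 ratio of 1.88 (range 0.81 to 3.03) beside 0.02 for all measured genes. Usp18, which removes ISG15 from proteins, had 31 and 311 counts, a ratio of 8.30 (5.73 to 12.4). Herc6, the gene of the main ISG15 ligase in mice, had 22 and 131 counts, a ratio of 4.93 (3.12 to 8.13). Isg15 had 1828 and 8138 counts, a ratio of 3.68 (3.50 to 3.88), and Uba7, the ISG15 E1, had 149 and 449 counts, a ratio of 2.49 (2.07 to 3.02). Each of the 5 genes was higher in the knockout-labelled library, and Ube2l6 had the lowest ratio. Within 1 Mb of Ube2l6, 13 further genes were measured, with a median log2 ratio of -0.19. By the size rule 1 was higher and 2 were lower, against 6.54% and 3.62% of all measured genes. The promoter windows of Ube2l6 and Isg15 are shown because these genes act in 1 pathway and were both higher, with matches to the interferon-stimulated response element in capitals (250 bases before the RefSeq start, GRCm38.p6: chr2:84798578-84798827, plus strand, and chr4:156200819-156201068, minus strand).

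Ube2l6: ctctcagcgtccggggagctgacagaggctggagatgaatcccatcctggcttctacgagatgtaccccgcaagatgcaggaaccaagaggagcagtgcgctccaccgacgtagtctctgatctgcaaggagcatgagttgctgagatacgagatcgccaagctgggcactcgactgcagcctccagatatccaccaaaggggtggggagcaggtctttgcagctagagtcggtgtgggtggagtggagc

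Isg15: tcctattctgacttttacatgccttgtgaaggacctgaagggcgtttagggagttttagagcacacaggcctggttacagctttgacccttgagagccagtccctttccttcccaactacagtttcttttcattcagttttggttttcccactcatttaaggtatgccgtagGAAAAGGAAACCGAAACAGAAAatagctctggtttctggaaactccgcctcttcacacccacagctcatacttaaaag

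The Isg15 window held 3 overlapping matches, from 78 to 57 bases before the start, and the Ube2l6 window held 0. Windows of Uba7 and Herc6 also held 0, and none of these windows held the kappaB letters, so the motifs did not overlap.

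UBE2M and UBE2F carry NEDD8, which activates cullin-RING ligases. Ube2m had 1682 and 2260 counts, a ratio of 1.11 (1.04 to 1.18), and Ube2f had 1858 and 2752 counts, a ratio of 1.23 (1.16 to 1.30). Both intervals lay above 1, as did those of 31.5% of all measured genes and 34.9% of genes averaging 100 or more counts. Of 12 measured genes of the NEDD8 system, 0 passed the size rule. Intervals of 6 lay above 1 and of 2 below, against 31.5% and 28.1% of all measured genes. Of genes averaging 100 or more counts, 34.9% lay above and 33.3% below. The median log2 ratio of the list was 0.20. Nedd8 itself, on 1196 and 1977 counts, had a ratio of 1.37 (1.27 to 1.47). The cullin partner gene Rnf7 had a ratio of 1.21 (1.12 to 1.31).

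Most genes of the SUMO system differed by less than 2-fold. Of 16 measured genes 1 was past the size rule as higher and 0 as lower, against 6.54% and 3.62% of all measured genes. Intervals of 3 lay above 1 and of 5 below, against 31.5% and 28.1%. Of genes averaging 100 or more counts, 34.9% lay above and 33.3% below. The median log2 ratio of the list was -0.01. The gene past the rule was Sumo2, with 830 and 2796 counts and a ratio of 2.79 (2.58 to 3.02). Sumo2 has processed copies in the genome, so its counts are uncertain.

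UBE2N builds lysine-63 chains together with the catalytically inactive variants UBE2V1 and UBE2V2. Ube2n had 2470 and 2975 counts, a ratio of 0.996 (0.944 to 1.05). Ube2v2 (GRCm38 chromosome 16, 15552077 to 15595773), the variant linked to DNA damage tolerance, had 282 and 223 counts, or 18.0 CPM (16 to 20.2) and 11.8 CPM (10.3 to 13.4), a ratio of 0.654 (0.546 to 0.783). The catalytic subunit was level, and the variant was lower in the knockout-labelled library. Ube2v1, the variant of NF-kappaB signalling, had 14 and 23 counts, with a ratio of 1.36 (0.670 to 2.86). At this depth a 2-fold higher level in the knockout-labelled library was not excluded. Gm20431, a gene with 0 counts in both libraries, shares 61.5% of the Ube2v1 exon length on the same strand, and the sources used here do not give how reads of shared exons were counted.

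Of 10 measured genes that work with lysine-63 chains, these 3 included, 0 passed the size rule. Intervals of 7 lay below 1 and of 0 above, against 28.1% and 31.5% of all measured genes. Of genes averaging 100 or more counts, 33.3% lay below and 34.9% above. The list's median log2 ratio was -0.35 beside 0.02 for all measured genes. Otub1, an inhibitor of UBE2N, had a ratio of 0.949 (0.883 to 1.02) on 1426 and 1635 counts. The linear chain ligase, which uses UBE2L3, had 0 of 3 genes past the rule and a median of 0.06 on the log2 scale. Its genes Rbck1 and Sharpin had ratios of 1.05 (0.980 to 1.12) and 0.893 (0.787 to 1.01), and the third gene, Rnf31, which encodes the catalytic subunit, had 1.42 (1.25 to 1.62).

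The E2 enzymes of lysine-48 chains, the signal for the proteasome, stayed within 1.3-fold. Ube2k, the E2 described with RNF138, had 2317 and 2688 counts, or 148 CPM (142 to 154) and 142 CPM (137 to 147), a ratio of 0.960 (0.908 to 1.02). The intervals overlap. Ube2g1, a chain extender for cullin-RING ligases, had a ratio of 0.851 (0.780 to 0.930), and Ube2r2, which serves SCF ligases, 1.20 (1.08 to 1.33). Ube2h, the E2 of the CTLH ligase, had a ratio of 1.08 (0.976 to 1.18) on 745 and 968 counts.

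**Figure D4:**
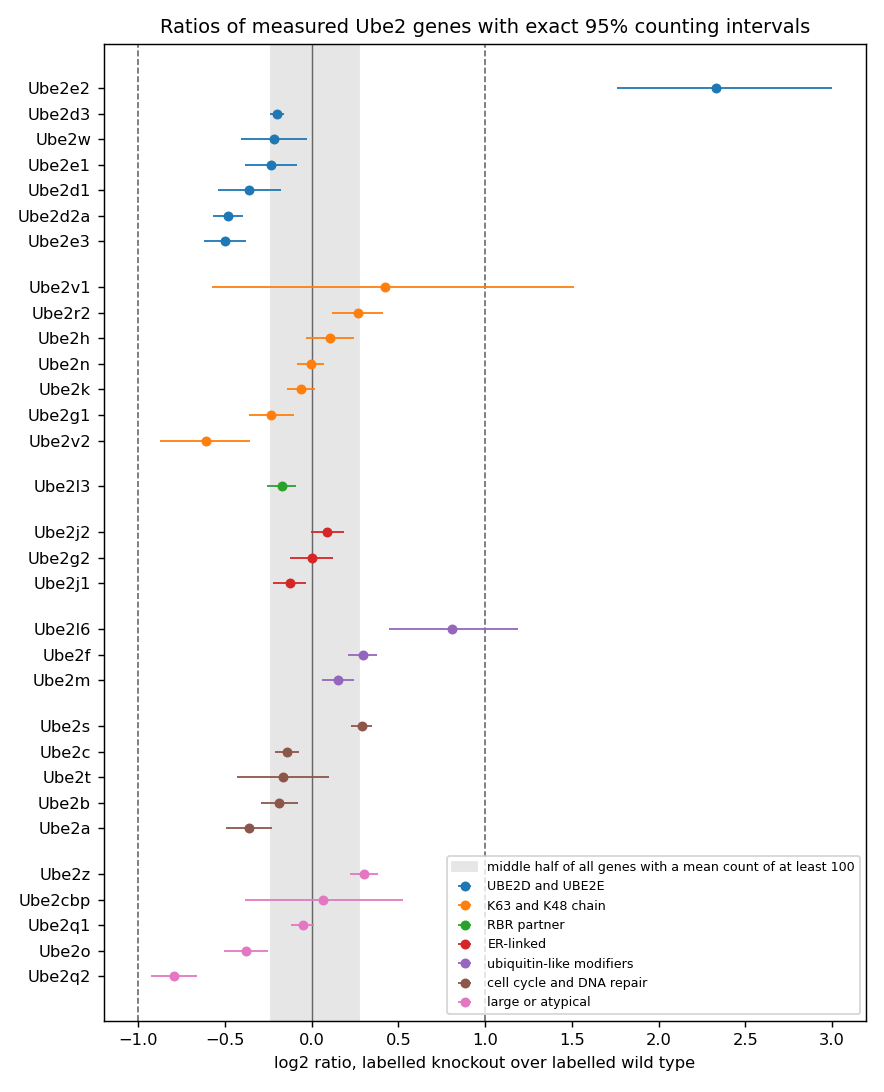
Log2 of the knockout-labelled over the wild-type-labelled library of 31 measured Ube2 genes by role, with exact 95% intervals for counting error, dashed lines at 2-fold and a grey band from -0.23 to 0.28, the quartiles of genes averaging 100 or more counts. Ube2e2 lies wholly beyond 2-fold, and Ube2l6 (ratio 1.75) and Ube2q2 (ratio 0.577) come next on either side.

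E2 enzymes of the endoplasmic reticulum, which tag misfolded proteins, were close to level. Ube2j1 and Ube2j2 encode membrane-anchored E2 enzymes, with ratios of 0.916 (0.858 to 0.979) and 1.06 (0.997 to 1.14). Ube2g2, which works with the ligase gp78, had 1004 and 1213 counts, with a ratio of 1.0 (0.919 to 1.09). Of 12 measured genes of this degradation pathway 1 passed the rule as higher and 0 as lower, against 6.54% and 3.62% of all measured genes. Intervals of 5 lay above 1 and of 6 below, against 31.5% and 28.1%. Of genes averaging 100 or more counts, 34.9% lay above and 33.3% below. The list's median was -0.03 on the log2 scale. The lowest ratio in the list was that of Herpud1 at 0.570 (0.538 to 0.604), named after its value was seen. Derl3 of the same list had 5 and 2 counts and was not measured. The gene past the rule was the ligase gene Rnf5, with 116 and 495 counts and a ratio of 3.53 (2.88 to 4.36).

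E2 enzymes of cell division and DNA repair differed by at most 1.3-fold. Ube2c had 3301 and 3610 counts, a ratio of 0.905 (0.863 to 0.949). Ube2s, which extends lysine-11 chains on substrates of the anaphase-promoting complex, had 3705 and 5467 counts, a ratio of 1.22 (1.17 to 1.27). Enzymes that serve 1 complex thus lay on opposite sides of 1. Rpl28 overlaps 3.56% of the Ube2s exons on the opposite strand and had 6888 and 10291 counts, a ratio of 1.24 (1.20 to 1.27), and its part in the Ube2s value was not tested. Of 17 measured genes of the anaphase-promoting complex and its regulators, 0 passed the rule, and the median was 0.02 on the log2 scale. Cdc20 had a ratio of 0.972 (0.928 to 1.02) and Anapc5 0.775 (0.746 to 0.806). Intervals of 7 genes of the complex lay above 1 and of 5 below, against 34.9% and 33.3% of genes averaging 100 or more counts. The highest ratio was that of Anapc13 at 1.94 (1.57 to 2.42), named after its value was seen.

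Ube2a and Ube2b encode the RAD6 enzymes, which mark histone H2B and, with RAD18, the replication clamp. Their ratios were 0.778 (0.709 to 0.854) and 0.878 (0.815 to 0.946), both below 1. None of 7 measured partner genes passed the rule, and their median log2 ratio was -0.02. Among them Rad18, also counted with the lysine-63 genes, had a ratio of 0.858 (0.802 to 0.918) and Wac 0.761 (0.720 to 0.804). The intervals of 3 partner genes lay below 1 and of 2 above, against 33.3% and 34.9% of genes averaging 100 or more counts. Those above were Rnf40 at 1.48 (1.38 to 1.59) and Ubr2 at 1.30 (1.21 to 1.39), named after their values were seen. Ube2t, the E2 of the Fanconi anaemia pathway, had 229 and 247 counts, with a ratio of 0.892 (0.742 to 1.07). Of 10 measured Fanconi genes 0 passed the rule, and the median was -0.19 on the log2 scale, with ratios of 0.854 (0.743 to 0.980) for Fance and 0.958 (0.871 to 1.05) for Fancd2. Intervals of 4 lay below 1 and of 0 above, against 33.3% and 34.9% of genes averaging 100 or more counts. The lowest ratio was that of Fancb at 0.532 (0.420 to 0.673), named after its value was seen. All 16 proliferation markers were measured, and they summed to 3957 CPM in the wild-type-labelled library and 3551 CPM in the knockout-labelled library. Their median log2 ratio was -0.12, with 11 intervals below 1 and 1 above, against 33.3% and 34.9% of genes averaging 100 or more counts. Ccnb1 and Ccnb2 had ratios of 0.842 (0.812 to 0.873) and 1.02 (0.968 to 1.08). The part of proliferation in the E2 values was not tested.

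The Ube2 gene with the lowest ratio was among the large and atypical E2 enzymes. Ube2q2 (ENSMUSG00000032307, plus strand of GRCm38 chromosome 9, 55148854 to 55207529), of a family with a long N-terminal region, had 1100 and 767 counts, or 70.2 CPM (66.2 to 74.5) and 40.5 CPM (37.7 to 43.5). The intervals do not overlap, and the level was 1.73-fold lower in the knockout-labelled library (1.58 to 1.90). Its paralogue Ube2q1 had 3430 and 3998 counts, with a ratio of 0.964 (0.921 to 1.01). Between these genes the share of Ube2q2 was 24.3% (23.0 to 25.6) and 16.1% (15.1 to 17.2). Within 1 Mb of Ube2q2, 18 further genes were measured, with a median log2 ratio of -0.04.

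Ube2o, which encodes a large enzyme with both E2 and E3 activity, had 1035 and 961 counts, with a ratio of 0.768 (0.703 to 0.839). Ube2z, whose product takes ubiquitin from the E1 UBA6, had 2119 and 3157 counts, with a ratio of 1.23 (1.17 to 1.30). Ube2cbp is a member by its symbol only, since it encodes a binding protein of UBE2C and not an E2 enzyme, and its ratio was 1.05 (0.766 to 1.44) on 75 and 95 counts.

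Most E1 genes, of the step before the E2 enzymes, and E2-fold genes of other names also differed by less than 2-fold. Of 9 measured E1 genes 1 passed the rule as higher, Uba7, and 0 as lower, against 6.54% and 3.62% of all measured genes. Intervals of 3 lay above 1 and of 2 below, against 31.5% and 28.1%. Of genes averaging 100 or more counts, 34.9% lay above and 33.3% below. The median of the E1 genes was 0.02 on the log2 scale. Of 9 E2-fold genes without a Ube2 symbol, Cdc34b had 0 counts in both libraries. Of the 8 measured ones 0 passed the rule, against the same shares. Intervals of 2 lay above 1 and of 3 below, against 31.5% and 28.1% of all measured genes and 34.9% and 33.3% of the abundant ones. The median of these 8 was -0.12 on the log2 scale. Ufc1, the E2 of the modifier UFM1, had 820 and 1685 counts, with a ratio of 1.70 (1.56 to 1.85). Cdc34, the first E2 known for SCF ligases, had 1535 and 1574 counts, with a ratio of 0.848 (0.790 to 0.911).

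**Figure D5:**
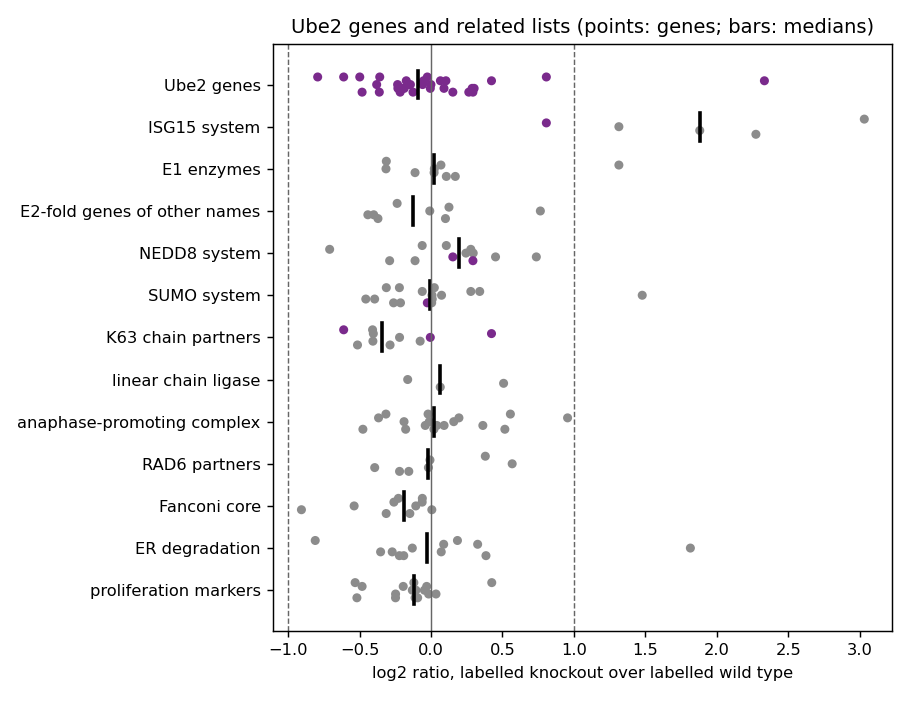
Log2 of the knockout-labelled over the wild-type-labelled library of each measured gene in the Ube2 group and in 12 related lists, with black bars for medians, purple points for Ube2 genes and dashed lines at 2-fold. The ISG15 system has the median furthest from 0, at 1.88, with Ube2l6 as its lowest point.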

How the data were processed

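RNA was sequenced from 2 cultures, 1 library per group, taken from the genotype labels. Per the labels' protocols, Trizol was used to extract RNA, and random hexamers primed the cDNA. Raw counts per gene were deposited by the authors, and the submitters' processing notes name featureCounts 1.5.0-p3, HISAT2 2.0.5, CASAVA 1.8 and GRCm38. The sources used here do not give strand setting, shared-exon handling or annotation release. Deposited by the authors, FPKM equal counts over table length and over 96.6% and 96.2% of the totals. A scaled signal, its log2 fold changes and p-values were also deposited by the authors.

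Ratios used raw counts scaled by TMM factors (1.01 and 0.995) of edgeR 4.0.16 in R 4.3.3. CPM have exact Poisson intervals, and ratios have Clopper-Pearson intervals conditional on the summed counts (scipy 1.17.1). Log2 ratios had 0.5 counts added, and 0 counts took a floor of 3. No edgeR or DESeq2 test was run. The procedure was tested on counts simulated with counting error only, which cannot show how it behaves with variation between cultures. Ube2 genes are named, and of each list up to 4 members past the size rule, or the 2 most abundant, except for a few results that are not reported here. Members and lists were chosen with earlier results of these data known. GENCODE M21 had the same coordinates and joined exon length for 36 of 37 Ube2 genes, all but Ube2d2a. Alternatives were total counts, size factors of DESeq2 1.42.0, upper-quartile and protein-coding TMM factors, log2 of FPKM plus 1, other count minimums, 5 added counts and other fold and interval conditions. Removal of Ube2 genes with over 10% exon overlap, and transcript length for levels, were added after the data were seen.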

Additional observations from a re-analysis of the deposited data

Results flagged for a closer look

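Pseudogenes outside the Ube2 comparison had reads above the floor of 3 counts set for a count of 0. Ube2d-ps, a transcribed pseudogene of the UBE2D family, had 129 counts in the wild-type-labelled library and 148 in the knockout-labelled library, a ratio of 0.949 (0.744 to 1.21). Ube2n-ps1, a processed copy of Ube2n, had 52 and 39 counts, a ratio of 0.620 (0.399 to 0.958). Whether reads were split between these copies and their parent genes was not tested.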

How the results depend on the processing

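The number of Ube2 genes past the size rule was 1 higher and 0 lower under each scaling, on FPKM, with no count minimum and under the 4-fold and interval conditions tried. It was 2 and 2 at a limit of 1.5-fold. With a mean count of at least 100 it was 0 and 0, since Ube2e2 is then not tested. Of 192 values of single Ube2 genes under other scalings, FPKM or 5 added counts, 191 stayed inside their counting interval, and the exception was Ube2e2 on FPKM at 1.10. The other scalings shifted each log2 ratio by only -0.006 to -0.017, so this count was nearly fixed in advance. It says nothing about variation between cultures. Genes with intervals above and below 1 numbered 7 and 12 without the Ube2 genes that overlap others. All 112 list medians stayed within their interval or range. Depth limits Ube2v1 and the 5 unmeasured genes. No paired analysis was possible because each group had 1 library.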

Other observations

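The order of E2 levels depended on the length used. The deposited table gives Ube2d3 a length of 24499 bases, all its exons joined, and by FPKM it ranked 13 among Ube2 genes in the wild-type-labelled library. Per kilobase of its longest protein-coding transcript in GENCODE M21, 3833 bases, it ranked 2, at 162 CPM per kilobase in the wild-type-labelled library and 141 in the knockout-labelled library. Ube2s, at 4 by FPKM, ranked 1 on that scale, with 191 and 233 CPM per kilobase. Ube2c, at 1 by FPKM in both libraries, ranked 4 in both per kilobase of that transcript. Ube2d2a, at 2 and 5 by FPKM, ranked 7 in both. Ube2v1 ranked 32 on both scales, at 0.438 and 0.595 CPM per kilobase, whereas its partner gene Ube2n ranked 10 in the wild-type-labelled library at 40.8. Ratios between libraries do not depend on the length.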
